A study of Mus musculus with 29 samples.

Results

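Kruppel-like factors (KLFs) were examined in RNA-seq of the mouse aortic arch. The 10 genes Klf2, Klf3, Klf4, Klf5, Klf6, Klf7, Klf10, Klf11, Klf13 and Klf15 were chosen by name, out of 51456 gene symbols with a value in each of 29 libraries. The study asked about the vascular safety of an antibody that neutralises sclerostin (Scl-Ab), a secreted Wnt inhibitor. Arches came from male C57BL/6 mice labelled 14 weeks old, with the adventitial fat scraped away. The first group (10 libraries) lacked apolipoprotein E (ApoE KO), carried a pump that released angiotensin II (AngII) at 0.11 µL/hr from a 15.27 mg/mL solution and received Scl-Ab at 10 mg/kg once a week for 4 weeks. The second (9 libraries) had the same genotype and pump with vehicle injections, and is called the vehicle-treated model. The third (10 libraries) was wild type (WT) with vehicle in pump and injections. The WT mice differ from the model in both Apoe and AngII, so the effects of genotype and infusion cannot be told apart. The protocol lists 9 WT animals for these 10 libraries, and nothing else says that each library is 1 animal, so n counts libraries and the p-values measure the spread between them. The hour at which tissue was taken is not given.

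KLFs are zinc-finger transcription factors. Their C-terminal fingers are much alike and bind GC-rich and CACCC sequences, while their N-terminal parts differ and recruit activators or repressors. In the vessel wall Klf2 and Klf4 are known from endothelium, where laminar flow induces them through the MEK5, ERK5 and MEF2 pathway and they keep the endothelium anti-inflammatory and anti-thrombotic. Klf4 is also known for the loss of contractile genes in smooth muscle cells that change phenotype, and Klf5 for smooth muscle growth after injury and AngII. Klf10 and Klf11 are early genes of TGF-beta, and Klf15 is a glucocorticoid target with daily rhythm in many tissues.

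Values are FPKM-like (scaled by gene length, so that levels of different genes can be compared). For a transcript of 2 kb, a value of 1 was estimated to equal 31.5 to 43.2 sequenced fragments depending on the library. Estimated depth was thus similar throughout, while its absolute size rests on the step search described under processing. Apoe checked the labels, with means of 8.39 ± 2.79 in Scl-Ab arches, 6.71 ± 1.70 in vehicle-treated model arches and 264 ± 65.0 in WT arches (SD, n = 10, 9 and 10). The summed level of 10 smooth muscle markers (Myh11 and others) was 5622 to 13513 with Scl-Ab, 5001 to 16843 in the vehicle-treated model and 17463 to 20943 in WT, and that of 13 macrophage markers was 873 to 2076, 1088 to 3234 and 123 to 408 in the same 3 groups. In bulk tissue of this kind, fewer cells of a type and less RNA per cell cannot be told apart. Differences were tested with limma on log2(value + 1), over the 13510 genes that reached 1 in 9 or more libraries, and called at a Benjamini-Hochberg adjusted p under 0.05.

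The promoters of 3 members are printed because the results turn on these genes: Klf15 and Klf13 had the largest changes with Scl-Ab against vehicle, and Klf2 had the widest spread among the Scl-Ab libraries. Each window runs from 250 bases before to 50 bases after the RefSeq transcription start (GRCm38.p6), 5′ to 3′ on the gene's strand. Klf15 lies on the plus strand (window chr6:90462326-90462625), Klf13 on the minus strand (chr7:63938866-63939165) and Klf2 on the plus strand (chr8:72318812-72319111). Capitals mark the E-box CACGTG, the sequence bound by the clock proteins CLOCK and BMAL1 among other factors, in Klf15, and a MEF2 motif (CTA, any 4 bases, then TAG) in Klf2.
Klf15: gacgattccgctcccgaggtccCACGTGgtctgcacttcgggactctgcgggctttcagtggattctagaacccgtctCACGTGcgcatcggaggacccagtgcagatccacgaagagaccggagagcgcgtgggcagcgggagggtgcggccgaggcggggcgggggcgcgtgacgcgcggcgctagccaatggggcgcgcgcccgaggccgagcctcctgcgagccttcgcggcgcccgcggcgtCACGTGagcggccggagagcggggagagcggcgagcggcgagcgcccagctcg
Klf13: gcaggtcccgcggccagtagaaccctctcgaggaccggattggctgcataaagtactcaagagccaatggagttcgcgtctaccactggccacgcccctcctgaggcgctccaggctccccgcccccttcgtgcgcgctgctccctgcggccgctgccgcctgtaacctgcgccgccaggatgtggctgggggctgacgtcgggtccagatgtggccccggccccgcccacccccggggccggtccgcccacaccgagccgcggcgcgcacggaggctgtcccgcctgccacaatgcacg
Klf2: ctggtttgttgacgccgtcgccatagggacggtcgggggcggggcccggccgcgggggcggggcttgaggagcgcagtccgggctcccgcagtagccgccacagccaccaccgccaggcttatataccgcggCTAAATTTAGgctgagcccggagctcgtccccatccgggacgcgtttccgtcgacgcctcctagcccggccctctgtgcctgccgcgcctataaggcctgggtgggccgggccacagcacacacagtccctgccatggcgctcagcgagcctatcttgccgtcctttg
The Klf15 window held 3 E-boxes, with first bases 228, 172 and 3 bases before the start. Of the 32851 windows of this length in the RefSeq table, 7.15% held at least 1 CACGTG on either strand (the motif is its own reverse complement) and 0.0883%, or 29 windows, held at least 3. The Klf15 window was 73.3% G and C, against a median of 52.7% over all windows. The shares given here were not matched for that content. The Klf2 window held 1 match of the MEF2 motif, 118 bases before the start, a motif found in 3.69% of windows. In Klf13 neither of these was found, nor the D-box TTATGNAA, the CRE TGACGTCA or the AP-1 motif TGANTCA, each searched on both strands. Klf4, Klf6 and Klf11 had 1 E-box each, and Klf3 and Klf7 none. Of the 10 members, 8 were in the table, without Klf5 and Klf10. A match describes letters in a window, and its absence says nothing about a factor.

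Klf6, a factor induced by injury and growth signals in many cell types, was the most abundant member in every group, at 26.2 to 27.9% of the summed member levels on average. It averaged 58.1 ± 18.8 in Scl-Ab arches, 54.8 ± 6.68 in vehicle-treated model arches and 54.4 ± 9.83 in WT arches (SD, n = 10, 9 and 10). By mean level the order with Scl-Ab was Klf6, Klf2, Klf15, Klf4, Klf3, Klf13, Klf10, Klf7, Klf11 and Klf5. In the vehicle-treated model it was Klf6, Klf15, Klf2, Klf13, Klf4, Klf3, Klf10, Klf7, Klf11 and Klf5. In WT it was Klf6, Klf15, Klf13, Klf2, Klf3, Klf4, Klf10, Klf7, Klf11 and Klf5. Ranges of neighbours in these orders overlapped within each group, except that the range of Klf11 lay wholly above that of Klf5. The sum of the 10 members was 206 ± 42.9 in Scl-Ab arches, 212 ± 22.7 in vehicle-treated model arches and 199 ± 23.8 in WT arches (SD, n = 10, 9 and 10). Klf15 made up 11.1% of that sum with Scl-Ab, against 18.1% in the vehicle-treated model and 19.3% in WT.

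**Figure D1:**
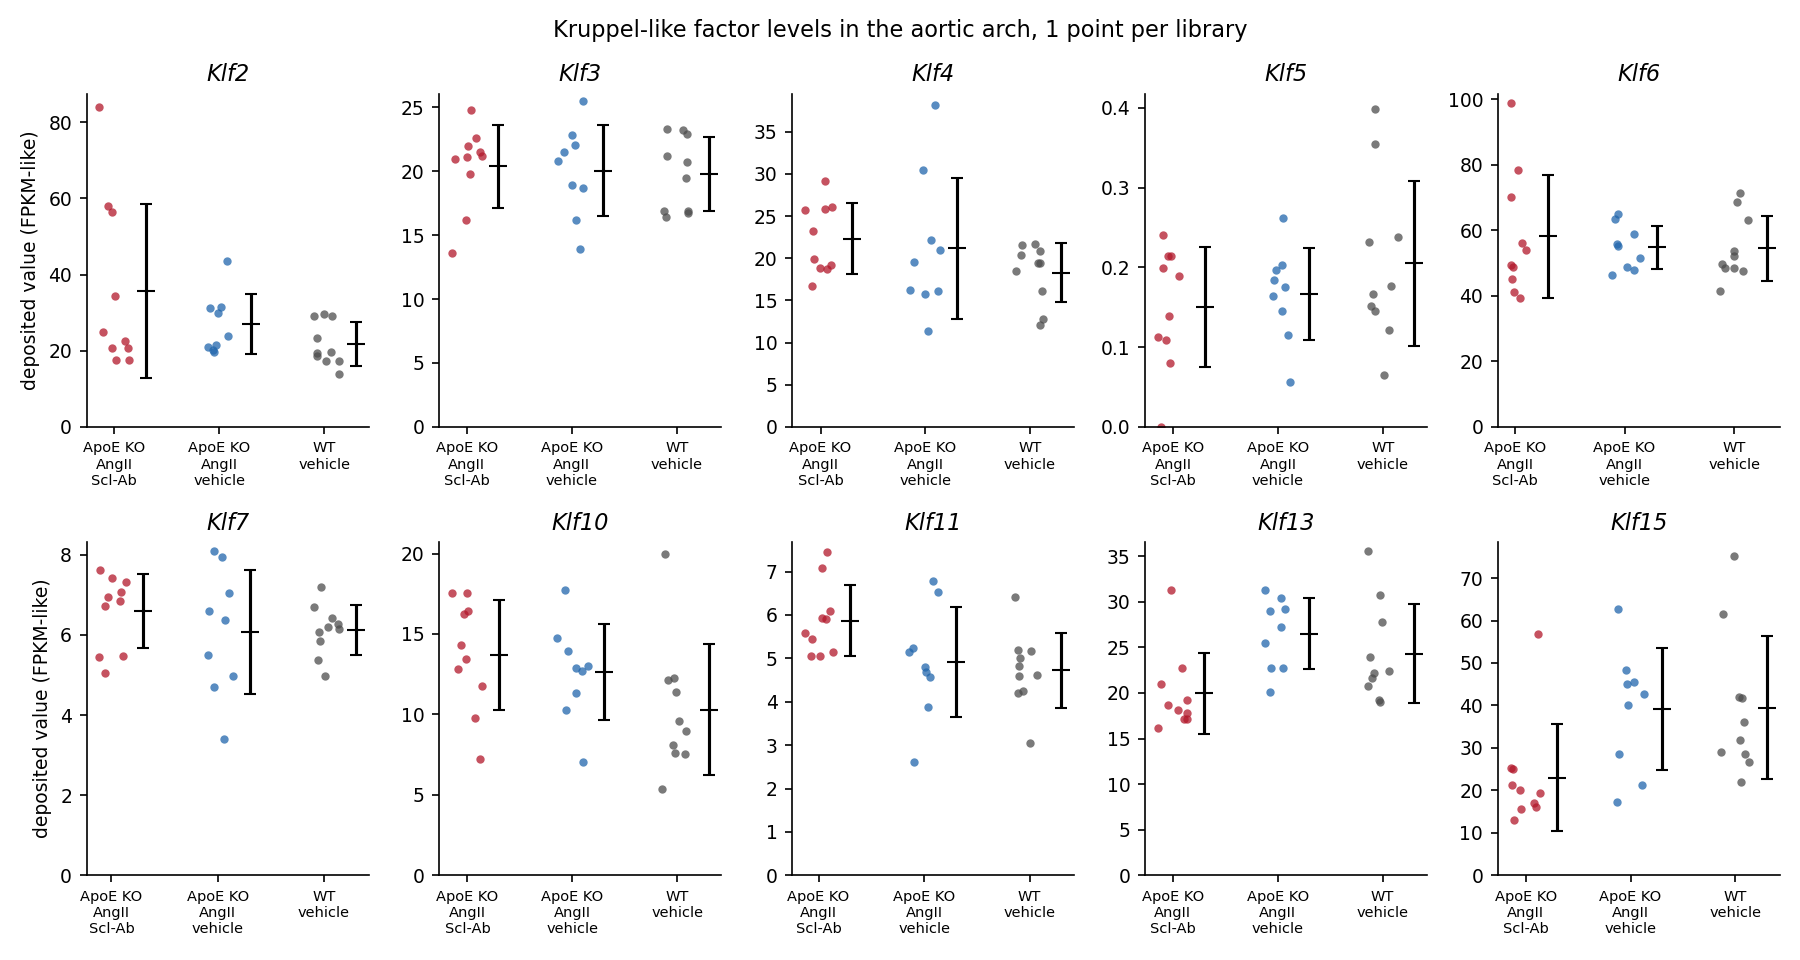
Deposited values (FPKM-like, vertical axis from 0) of the 10 members, 1 point per library, for ApoE KO with AngII and Scl-Ab (10), ApoE KO with AngII and vehicle (9) and WT with vehicle (10); bars give the mean and SD. All Klf15 points with Scl-Ab but 1 (56.9) are at or under 25.3, and 3 Scl-Ab libraries have the highest Klf2 values (56.4 to 84.0).

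The vehicle-treated model was first set against WT, which asks how the diseased arch differs. Of the 9 tested members 0 were called, where 53.7% of all tested genes were (22.7% higher and 31% lower). This covers the chosen members only, since Klf8 and Klf9, outside the 10, were called, as given below. None of the 9 reached an unadjusted limma p under 0.05, and a Wilcoxon rank sum test across genes also called 0. The members' changes ran from -0.04 to 0.31 on the log2 scale, with a median of 0.03 and a median size of 0.04, while over all tested genes the median was -0.04 and the median size 0.24. The 95% intervals of the 9 changes together reached from -0.52 to 0.79, the lower bound being that of Klf15 and the upper that of Klf2. The smallest p belonged to Klf10, at 12.6 ± 2.98 in vehicle-treated model arches and 10.3 ± 4.07 in WT arches (SD, n = 9 and 10; log2 0.31, SE 0.18, limma adjusted p = 0.142). Without the WT library numbered 25, which had the highest Klf10 of all 29 libraries (20.0), Klf10 was called higher (log2 0.42, limma adjusted p = 0.032). The ranges of the 2 groups were apart for 0 of the 10 members, against 16.8% of all tested genes.

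Klf2 was the only member whose 9 vehicle-treated model libraries all lay above the WT median. Its lowest, median and highest values were 19.6, 24 and 43.7 in the vehicle-treated model and 14.0, 19.5 and 29.7 in WT, so the ranges overlapped. The change was 0.29 on the log2 scale (SE 0.24, limma adjusted p = 0.318). That SE also takes in the spread of the Scl-Ab libraries, which for Klf2 was wide. With only these 2 groups in the fit the SE was 0.16 (limma adjusted p = 0.123), and a Wilcoxon rank sum test gave an adjusted p of 0.0738. Klf4 ran from 11.3 through a median of 19.6 to 38.2 in the vehicle-treated model and from 12.1 through 19.5 to 21.7 in WT, with 3 vehicle-treated model libraries above all of WT and 1 below it. Klf15 was at nearly the same mean level, 39.1 ± 14.3 in vehicle-treated model arches and 39.5 ± 16.8 in WT arches (SD, n = 9 and 10). Klf3 and Klf7, which differed by 0.01 and -0.04 on the log2 scale, had 95% intervals within -0.25 and 0.22.

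Genes that these factors are known to act on were examined in the same groups. Of 12 genes of endothelial activation and tone known as Klf2 or Klf4 targets, 11 were higher in the vehicle-treated model, with a median change of 1.32 on the log2 scale. That was 91.7% called, where 53.7% of all tested genes were called and 22.7% were called as higher. Vcam1, an adhesion receptor for leukocytes that Klf2 represses, was at 153 in the vehicle-treated model and 28.9 in WT (log2 2.36, SE 0.17), and Selp, which encodes P-selectin, at 13.5 and 2.93 (log2 1.89, SE 0.16). Nos3, which encodes the endothelial nitric oxide synthase and is activated by Klf2, was also higher, at 9.48 in the vehicle-treated model and 6.16 in WT (log2 0.56, limma adjusted p = 0.00493). Nos3 was picked after values were seen, and the list was not split into genes that the factors activate and repress. Of the 12 endothelial markers 8 were higher as well (66.7% called). Their summed levels were 313 to 433 in the vehicle-treated model and 203 to 325 in WT. The part of these markers in the target counts was not tested.

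Of 10 tested contractile genes and their coactivators, a group that Klf4 is known to repress, 8 were lower in the vehicle-treated model and none higher (median log2 -0.66). Myh11, the smooth muscle myosin heavy chain, was at 509 in the vehicle-treated model and 1196 in WT (log2 -1.27, SE 0.15), and Lmod1, an actin nucleator of smooth muscle, at 135 and 290 (log2 -1.15, SE 0.15). These genes include smooth muscle markers, whose levels by library are given above. Of 12 remodelling genes linked to Klf5 or Klf6, 8 were higher and none lower, among them Plau, the urokinase gene (log2 1.49, SE 0.22), and Ccnd1, which encodes cyclin D1 (log2 1.53, SE 0.24). Of 11 early TGF-beta and BMP genes 2 were higher and 7 lower, led by Id2, a BMP-induced inhibitor of basic helix-loop-helix factors (log2 -1.04, SE 0.15), and Bambi, a decoy receptor (log2 -0.83, SE 0.12). The contractile, remodelling and early TGF-beta and BMP lists had 80%, 66.7% and 81.8% called, where 53.7% of all tested genes were. Of 10 tested genes of Klf15-linked metabolism 1 was higher and 3 lower (40% called, under the background of 53.7%), with Aass, of lysine breakdown (log2 -0.58, SE 0.08), and Pik3ip1, an inhibitor of PI3 kinase (log2 -0.99, SE 0.15), having the smallest p.

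Upstream of Klf2 and Klf4, 1 of 13 genes of the ERK5, MEF2 and cerebral cavernous malformation (CCM) pathways was higher and 6 were lower. Heg1, the receptor that anchors the CCM complex, was higher (39.0 in the vehicle-treated model and 19.7 in WT, log2 0.94, SE 0.20), and Hdac5, a MEF2 repressor, was lower (24.6 and 45.5, log2 -0.90, SE 0.11). Among 14 cofactors 1 was higher and 4 lower, of which Wwp1, a ubiquitin ligase for Klf2 and Klf5, was higher (log2 0.34, SE 0.08) and Sin3a, the corepressor scaffold used by Klf10 and Klf11, lower (log2 -0.32, SE 0.05). At 53.8% and 35.7% called, these lists stood near or under the background of 53.7%. Of 12 clock genes 3 were higher and 7 lower in the vehicle-treated model, with Hlf, a clock output factor (2.64 in the vehicle-treated model and 11.6 in WT, log2 -1.66, SE 0.30), and Nr1d1 (log2 -1.06, SE 0.20) first by p. Of 13 glucocorticoid targets 8 were higher and 1 lower, with Lcn2 (log2 3.30, SE 0.32) and Sgk1 (log2 0.94, SE 0.20) first. The clock and glucocorticoid lists had 83.3% and 69.2% called, above that background. Of 20 immediate early genes 3 were higher and 6 lower (45% called, under the background of 53.7%), with Jund (log2 -0.54, SE 0.09) and Nr4a1, an orphan nuclear receptor (log2 -1.85, SE 0.34), first. Members fitted with these levels as covariates gave 1 call each: Klf10 with the clock index described below (log2 0.58, limma adjusted p = 0.0225), Klf15 with the glucocorticoid level (log2 -0.90, limma adjusted p = 8.01e-06) and Klf2 with the immediate early level (log2 0.52, limma adjusted p = 0.0148). Without a covariate Klf15 changed by -0.01 (limma adjusted p = 0.968). The glucocorticoid covariate was chosen after seeing the data. Its mean was 6.08 in the vehicle-treated model and 5.05 in WT, so that fit does not separate level from group. The part of these levels in the members' changes was not tested.

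**Figure D2:**
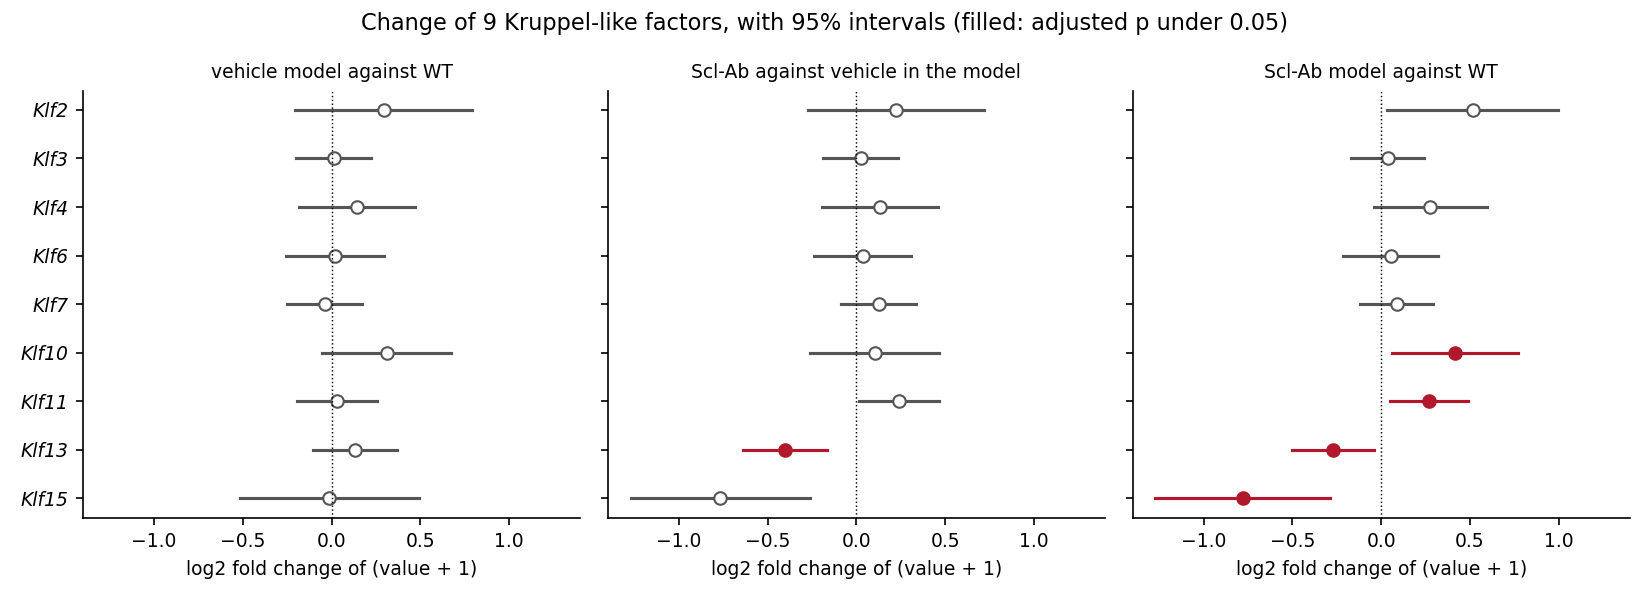
Log2 fold changes of (value + 1) with 95% intervals for the 9 tested members (vertical axis) in the 3 comparisons; filled red points have a limma adjusted p under 0.05. In the vehicle-treated model against WT 0 are filled, in Scl-Ab against vehicle 1 (Klf13) and in Scl-Ab against WT 4 (Klf10, Klf11, Klf13 and Klf15).

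Scl-Ab was then set against vehicle within the model, the comparison that asks what the antibody does. Klf13, a repressor and activator known from T cells and heart, was lower with Scl-Ab. Its values ran from 16.2 through a median of 18.4 to 31.3 with Scl-Ab and from 20.1 through 27.3 to 31.3 with vehicle. The ranges overlapped, 7 of 10 Scl-Ab libraries lay below every vehicle library, and 9 of 10 lay below the vehicle median. The change was 0.756-fold (log2 -0.40, SE 0.12, limma adjusted p = 0.0319). It was the only call among 9 tested members, where 7.44% of all tested genes were called, 2.64% as higher and 4.8% as lower. The higher calls were 35.4% of these 1005, against 65.4% of 367 with equal totals per library and 46.2% with median-of-ratios scaling. In all, 3 members had an unadjusted p under 0.05. Ranges were apart for 0 of 10 members and for 0.141% of all tested genes. Klf13 missed the threshold without any 1 of the libraries numbered 12, 15 and 17 with Scl-Ab and 2, 4 and 6 with vehicle (limma adjusted p between 0.05 and 0.0672). E030018B13Rik and Gm27252 overlap Klf13 on the other strand, at means of at most 0.163 and 3.27 in any group, and whether counting used the strand is not stated.

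Klf15, which drives amino acid breakdown and limits fibrosis and hypertrophy in heart and vessel, had the largest change of the members and narrowly missed the threshold. It ran from 13.1 through a median of 19.7 to 56.9 with Scl-Ab and from 17.4 through 42.8 to 62.8 with vehicle. All Scl-Ab libraries but the one numbered 10 were at or under 25.3, and 6 of the 9 vehicle libraries were at 40.2 or above. The difference was 0.588-fold (log2 -0.77, SE 0.25, limma adjusted p = 0.0538), a size exceeded by 0.822% of tested genes. Without Scl-Ab library 10 it was called (log2 -0.92, limma adjusted p = 0.0121), as it was without vehicle library 3 (log2 -0.86, limma adjusted p = 0.0363), vehicle library 5 (log2 -0.90, limma adjusted p = 0.0314) or WT library 20 (limma adjusted p = 0.0434). In the other 25 of 29 cases it was not called, with a smallest change of -0.67 and a limma adjusted p of up to 0.101.

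Levels of clock and glucocorticoid genes were examined beside these 2 members. A clock index (mean log2 level of 8 clock genes such as Per3 less that of 4 such as Arntl) was 1.76 to 3.90 with Scl-Ab and -1.22 to 2.20 with vehicle. With that index as a covariate Klf13 changed by -0.24 on the log2 scale (limma adjusted p = 0.904) and Klf15 by -0.44 (limma adjusted p = 0.932). Of the 13510 genes 3 were then called, against 1005 without the covariate. The index ranges of Scl-Ab and vehicle overlapped only between 1.76 and 2.20, so index and antibody cannot be told apart in this fit. The mean log2 level of 13 glucocorticoid receptor targets was 4.95 to 6.72 with Scl-Ab and 5.10 to 6.91 with vehicle. In WT it was 4.54 to 6.06, and the group means were 5.40 with Scl-Ab, 6.08 with vehicle and 5.05 in WT. With this glucocorticoid level as a covariate Klf13 changed by -0.19 (limma adjusted p = 0.191) and Klf15 by -0.19 (limma adjusted p = 0.348). The part of clock and glucocorticoid levels in the Klf13 and Klf15 changes was not tested. Of 12 clock genes 5 were higher and 4 lower with Scl-Ab, led by Npas2, a partner of BMAL1 (1.23 with Scl-Ab and 6.66 with vehicle, log2 -1.62, SE 0.32), and Per3, a period gene (20.6 and 5.54, log2 1.78, SE 0.37). Of the 13 glucocorticoid targets 3 were lower, among them Zbtb16, a zinc-finger factor (8.17 with Scl-Ab and 28.3 with vehicle, log2 -2.13, SE 0.43), and Errfi1, a feedback inhibitor of the EGF receptor (24.5 and 109, log2 -1.83, SE 0.45). The clock and glucocorticoid lists had 75% and 23.1% called, where 7.44% of all tested genes were. Klf9, another glucocorticoid-induced KLF outside the 10, was 40.9 ± 20.8 in Scl-Ab arches and 59.4 ± 7.84 in vehicle arches (SD, n = 10 and 9; log2 -0.67, SE 0.20, limma adjusted p = 0.0371).

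Klf11, a TGF-beta early gene, was above the vehicle median in all 10 Scl-Ab libraries, at 5.87 ± 0.82 in Scl-Ab arches and 4.92 ± 1.26 in vehicle arches (SD, n = 10 and 9). Its change of 0.24 on the log2 scale did not pass (SE 0.11, limma adjusted p = 0.174). Klf10, its close relative, was 13.7 ± 3.43 in Scl-Ab arches and 12.6 ± 2.98 in vehicle arches (SD, n = 10 and 9; log2 0.10, limma adjusted p = 0.776). Of the 11 early TGF-beta and BMP genes 0 were called by limma with Scl-Ab and 3 had an unadjusted p under 0.05, Tgif1 (log2 0.33, SE 0.13) and Skil (log2 -0.26, SE 0.11), both SMAD corepressor genes, having the smallest.

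Among the Scl-Ab libraries Klf2 had the largest SD of the members (22.8), whereas in the vehicle-treated model and in WT Klf15 did (14.3 and 16.8). Klf2 was 84.0 in number 19, 58.1 in number 14 and 56.4 in number 17, and between 17.5 and 34.3 in the other 7. These 3 lay above every vehicle and WT library, 2 of the 10 lay below every vehicle library, and 5 of 10 lay above the vehicle median. The medians were 23.7 with Scl-Ab and 24 with vehicle, and the change of 0.22 on the log2 scale did not pass (SE 0.24, limma adjusted p = 0.622). The same 3 libraries had the highest mean log2 levels of 20 immediate early genes, at 5.21, 5.08 and 4.65, against 3.74 to 4.36 in the other Scl-Ab libraries. With that level as a covariate the Klf2 change was -0.13 (SE 0.18, limma adjusted p = 0.709). Of these 20 genes 2 were higher with Scl-Ab, Egr3 (log2 0.93, SE 0.19, limma adjusted p = 0.00598) and Junb (log2 0.56, SE 0.17, limma adjusted p = 0.044). That share of 10% was near the 7.44% of all tested genes. The part of immediate early levels in the Klf2 values was not tested. Klf6 was highest in the Scl-Ab libraries 19 and 14 as well, at 98.8 and 78.5, with a median of 51.7 with Scl-Ab and 55.3 with vehicle. Klf4 was 22.3 ± 4.20 in Scl-Ab arches and 21.2 ± 8.35 in vehicle arches (SD, n = 10 and 9), with a 95% interval of the change from -0.19 to 0.46 on the log2 scale.

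Of the 12 endothelial Klf2 and Klf4 targets 2 were lower with Scl-Ab and none higher. Nos3 was at 6.11 with Scl-Ab and 9.48 with vehicle (log2 -0.60, SE 0.16, limma adjusted p = 0.0258), and Edn1, which encodes the vasoconstrictor endothelin 1, at 6.90 and 10.95 (log2 -0.62, SE 0.19, limma adjusted p = 0.0461). The list's median was -0.34, against -0.01 over all tested genes. Of this list and of the remodelling list below, 16.7% each were called, against 7.44% of all tested genes. Endothelial markers moved with the target list: 3 of 12 were lower (25% called). Their summed level was 200 to 390 with Scl-Ab and 313 to 433 with vehicle. Their part in the result was not tested. Of the 12 remodelling genes Tgfbr1, a TGF-beta receptor (log2 -0.49, SE 0.14), and Cdkn1a, a cell cycle inhibitor also induced by glucocorticoids (41.1 with Scl-Ab and 95.7 with vehicle, log2 -1.14, SE 0.33), were lower. Pik3ip1 was the 1 of 10 metabolic genes that was higher (log2 0.55, SE 0.15), and Ep300, the acetyltransferase that KLFs recruit, the 1 of 14 cofactors (log2 0.16, SE 0.05). At 10% and 7.14% called, these lists were near the 7.44% of all tested genes. By limma 0 of the 10 contractile genes and 0 of the 13 ERK5, MEF2 and CCM genes were called, and 0 and 3 of them had an unadjusted p under 0.05. The smallest p among the contractile genes belonged to Mkl1, an SRF coactivator (log2 0.14, SE 0.08), and Smtn (log2 0.25, SE 0.17), and in the upstream list to Hdac5 (log2 0.30, SE 0.11) and Heg1 (log2 -0.48, SE 0.20).

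**Figure D3:**
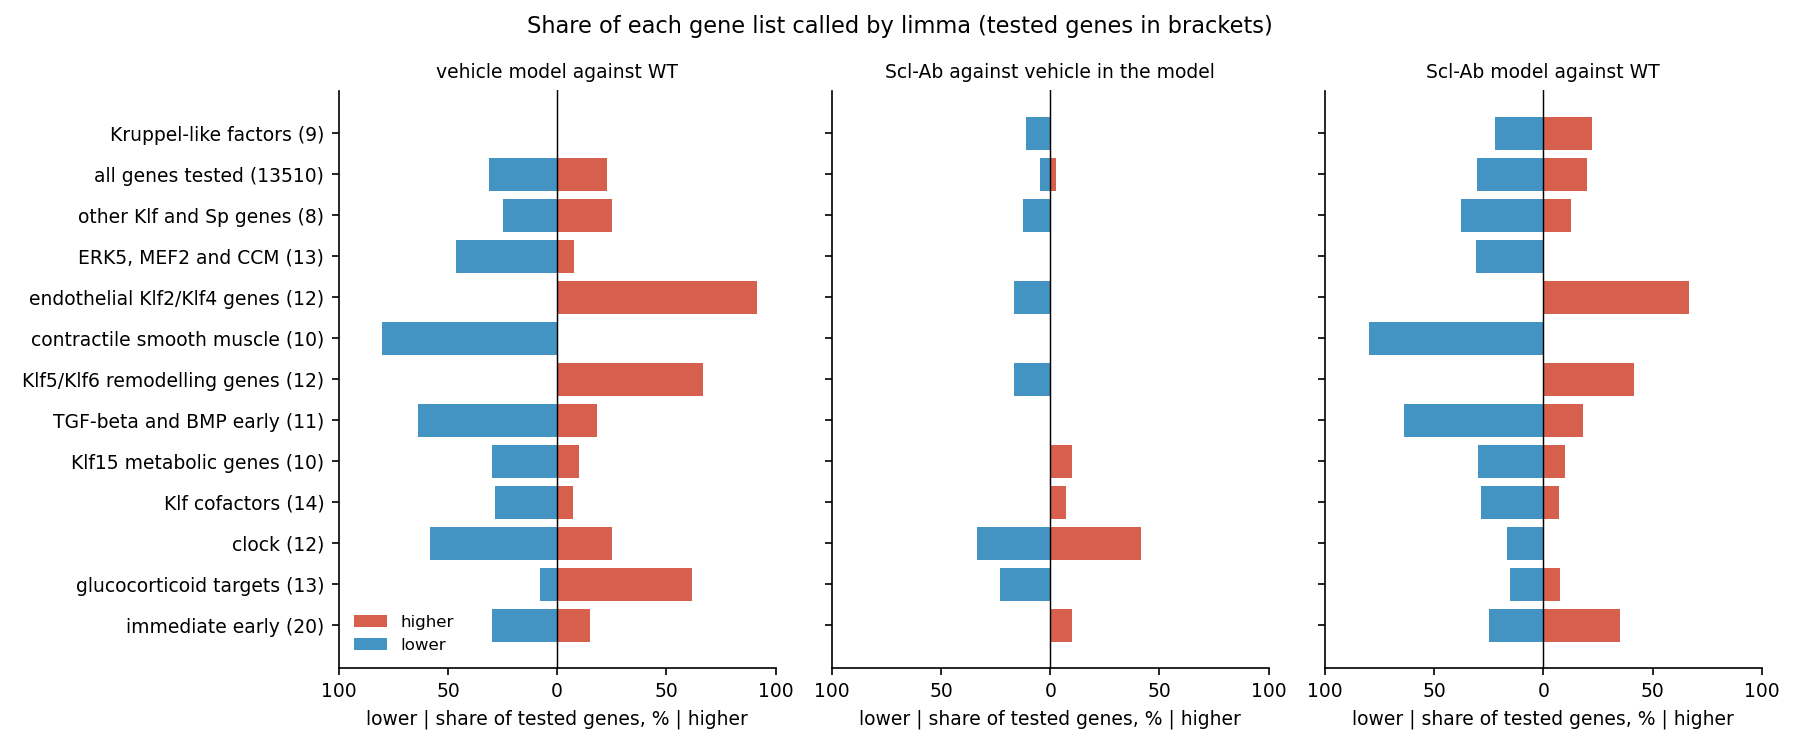
Share of tested genes of each list (horizontal axis, percent; higher to the right, lower to the left; number tested in brackets) with a limma adjusted p under 0.05 in the 3 comparisons. Against WT the bar of the 9 tested members is empty in the vehicle-treated model, while 11 of 12 endothelial targets are higher and 8 of 10 contractile genes lower. With Scl-Ab against vehicle the clock list (5 higher, 4 lower of 12) has the longest bars.

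The Scl-Ab-treated model was last set against WT. Of 9 tested members 4 were called, 2 higher and 2 lower, where 50.4% of all tested genes were called (19.8% higher and 30.5% lower). Klf15 was 0.582-fold (log2 -0.78, SE 0.24, limma adjusted p = 0.00807), with 9 of 10 Scl-Ab libraries under the WT median of 34.1 and 7 of 10 under every WT library. It was called in every one of 15 alternative analyses and without any 1 of the 29 libraries (limma adjusted p at most 0.02). Klf13 was lower (log2 -0.27, SE 0.11, limma adjusted p = 0.0444), with 6 of 10 Scl-Ab libraries below all of WT. Klf11 was higher (log2 0.27, SE 0.11, limma adjusted p = 0.0377), with 10 of 10 Scl-Ab libraries above the WT median, and Klf10 was higher (log2 0.41, SE 0.17, limma adjusted p = 0.0469), with 9 of 10 above it. The calls of Klf10, Klf11 and Klf13 were each lost when single libraries were left out, in 18, 9 and 11 of 29 cases, and in 8, 6 and 8 of the 15 alternative analyses, where the smallest changes were 0.23, 0.13 and -0.22 on the log2 scale. The ranges of Scl-Ab and WT were apart for 0 of 10 members, against 12.3% of all tested genes. Klf2 had a change of 0.52 on the log2 scale (SE 0.24, limma adjusted p = 0.0694) that did not pass. It was called without Scl-Ab library 11 or 18 (limma adjusted p = 0.0376 and 0.0354). This comparison shares libraries with both of the others and is no independent repeat of either.

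The gene groups around the KLFs were set against WT in the Scl-Ab-treated model too, where 50.4% of all tested genes were called. The endothelial (66.7%), contractile (80%), early TGF-beta and BMP (81.8%) and immediate early (60%) lists lay above that share, and the remodelling (41.7%), metabolic (40%), cofactor (35.7%), ERK5, MEF2 and CCM (30.8%), glucocorticoid (23.1%) and clock (16.7%) lists below it. Of the 12 endothelial targets 8 were higher, with Vcam1 (log2 2.36, SE 0.16) and Icam1, another adhesion receptor (log2 1.07, SE 0.11), first by p. Of the 10 contractile genes 8 were lower, with Myh11 (log2 -1.33, SE 0.14) and Lmod1 (log2 -1.26, SE 0.15) first. Of the 12 remodelling genes 5 were higher, Ccnd1 (log2 1.46, SE 0.23) and Plau (log2 1.16, SE 0.21) among them. Of the 11 early TGF-beta and BMP genes 2 were higher and 7 lower, including Id2 (log2 -1.11, SE 0.14) and Tgfb1i1, which encodes the adaptor Hic-5 (log2 -0.95, SE 0.15). In the ERK5, MEF2 and CCM list 4 of 13 were lower, including Hdac5 (log2 -0.59, SE 0.11) and Mef2d, a MEF2 factor (log2 -0.28, SE 0.07). Of the 10 metabolic genes 1 was higher and 3 lower, including Aass (log2 -0.70, SE 0.07) and Fbxo32, a muscle ubiquitin ligase (log2 -0.71, SE 0.16), and of the 14 cofactors 1 was higher and 4 lower, including Ctbp1, the corepressor bound by Klf3 (log2 -0.21, SE 0.05), and Sin3a (log2 -0.22, SE 0.05). Of the 12 clock genes 2 were lower, Nr1d1, a nuclear receptor of the clock (log2 -0.77, SE 0.20), and Npas2 (log2 -1.22, SE 0.31). Of the 13 glucocorticoid targets 1 was higher and 2 lower, with Lcn2, an acute-phase protein gene (log2 4.05, SE 0.32), and Dusp1, a MAP kinase phosphatase gene (log2 -0.74, SE 0.19), first by p. Of the 20 immediate early genes 7 were higher and 5 lower, with Egr2 (log2 1.66, SE 0.20) and Egr3 (log2 0.91, SE 0.19) first.

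Klf5, the growth-promoting member, was hardly detected and was the only member under the filter. It ran from 0 through a median of 0.164 to 0.241 with Scl-Ab, from 0.0567 through 0.175 to 0.262 in the vehicle-treated model and from 0.065 through 0.172 to 0.398 in WT. With the 5201 bases of all its exons, the depth given above put Klf5 at 0 to 44.7 fragments per library. The medians were 17.9 with Scl-Ab, 17.9 in the vehicle-treated model and 16.4 in WT. These estimates lay on steps of 2.99 in all libraries. If 1 step is 1 fragment, the estimate is 0 to 15 fragments (medians 6, 6 and 5.5 in the same order). This assumes either a shorter gene length behind the values or a lower depth than the one estimated. The length used was not known, and which of these applies was not tested. On the log2(value + 1) scale, differences between values this low are flattened, and no count test was run. When all genes were tested with no filter, its limma adjusted p was 0.879 for Scl-Ab against vehicle, 0.561 for the vehicle-treated model against WT and 0.352 for Scl-Ab against WT.

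Of the 16 other Klf and Sp genes, 8 were tested, and 8 (Klf1, Klf14, Klf17 and Sp5 to Sp9) were too low. Klf9 had the largest change of them in the vehicle-treated model against WT, at 59.4 and 41.9 (log2 0.49, SE 0.20, limma adjusted p = 0.0363). In that comparison Sp3 was also higher (log2 0.16), and Klf8 (log2 -0.24) and Sp2 (log2 -0.16) were lower. The share called among the 8 was 50%, near the 53.7% of all tested genes. For Scl-Ab against vehicle Klf9 was the 1 of 8 called (12.5%, against 7.44% of all tested genes). With Scl-Ab against WT, Klf12, a repressor of AP-2 alpha, was higher (2.21 and 1.24, log2 0.50), and Klf8, Sp2 and Sp1 were lower (log2 -0.27, -0.27 and -0.16). That share of 50% was near the 50.4% of all tested genes.

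Members were next related to each other across the libraries of each group, in 45 pairs and 3 groups. Of these 135 relations 2 had an adjusted permutation p under 0.05 for Pearson's r, and 31 had an unadjusted one. Klf13 and Klf15 were related in the 10 WT libraries (r = 0.927, permutation p = 0.00022, adjusted p = 0.0297; Spearman's rho = 0.806, permutation p = 0.00769, adjusted p = 0.202). Without the 2 libraries farthest from the median Klf13, r was 0.732 (permutation p = 0.0357, adjusted p = 0.481), so the pair was not called in the remaining 8 libraries. Both members were highest in WT libraries 20 and 21, at 35.5 and 30.7 for Klf13 and 75.2 and 61.6 for Klf15. The same pair gave r = 0.611 with Scl-Ab (n = 10; permutation p = 0.0933, adjusted p = 0.315) and r = 0.779 with vehicle (n = 9; exact permutation p = 0.0135, adjusted p = 0.142). With Scl-Ab, r was -0.45 without the 2 farthest libraries, one of which was number 10.

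**Figure D4:**
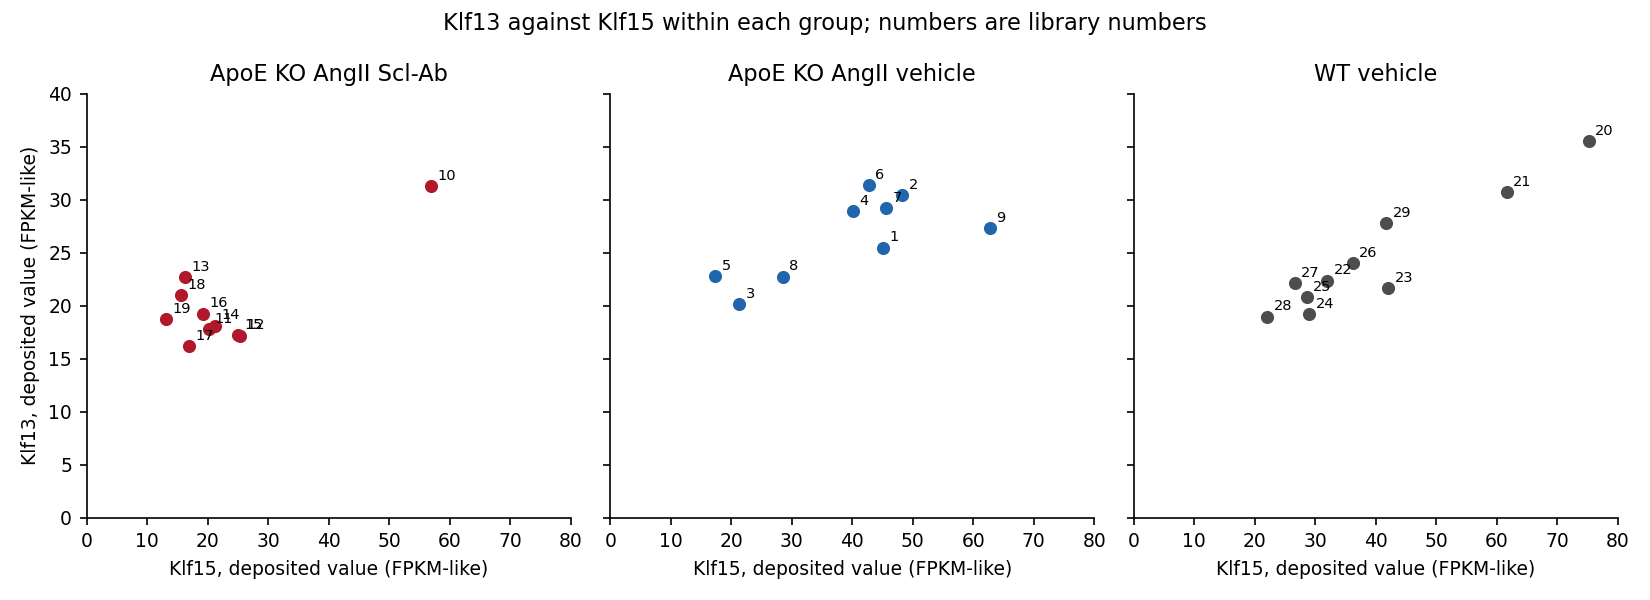
Klf13 (vertical axis) against Klf15 (horizontal axis), both as deposited FPKM-like values, 1 point per library marked with its number, for Scl-Ab (10), vehicle (9) and WT (10). Scl-Ab library 10 (56.9, 31.3) and WT libraries 20 and 21 (75.2, 35.5 and 61.6, 30.7) stand apart from the rest of their groups.

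Klf3, a repressor that works through CtBP, and Klf7, known from neurons and fat cells, were related in the 9 vehicle libraries (r = 0.919, exact permutation p = 0.000543, adjusted p = 0.0366; rho = 0.933, exact permutation p = 0.00075, adjusted p = 0.101). Without the 2 libraries farthest from the median Klf3, r was 0.941 (exact permutation p = 0.00159, adjusted p = 0.107). The pair gave r = 0.764 with Scl-Ab (permutation p = 0.0116, adjusted p = 0.142) and r = 0.601 in WT (permutation p = 0.0654, adjusted p = 0.248). Both genes overlap others: Klf3 with C230096K16Rik and Gm20033, Klf7 with Gm13748 and Gm26649, with group means of at most 4.89.

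The genes most like each member were found by the root mean square difference of standardised log2 values over 29 libraries, each gene centred on its group means. Klf15 was nearest to Gm11827 (0.444), Lifr, the leukaemia inhibitory factor receptor (0.451), and Fkbp5, a chaperone induced by glucocorticoids (0.480). Fkbp5 was 157 in Scl-Ab library 10 and had a median of 11.4 in that group. Klf13 was nearest to Bcl2l1 and Foxo3 (both 0.505) and Mlxip (0.528). Klf2 was nearest to the immediate early genes Fosb (0.628) and Jun (0.641), and to Sgk1 (0.740), a kinase gene induced by glucocorticoids and serum. Klf6 was nearest to Cyr61 (0.664), an early matricellular gene, then Avl9 (0.698) and Arid5b (0.739). Klf4 was nearest to Uap1 (0.625), Ly6a (0.632) and Baz1a (0.651), Klf3 to Ctnnd1 (0.616), Nap1l3 (0.638) and Ankrd50 (0.651), and Klf7 to Dpp8 (0.585), Tjp1 (0.586) and Tnrc6b (0.594). Klf10 was nearest to Card10 (0.699), Cdc42ep1 (0.712) and Zfp703 (0.735), and Klf11 to Tap2 (0.605), Selenbp1 (0.642) and Cldn15 (0.667). These are descriptions of likeness within these libraries, which share depth and tissue mixture.

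In the fixed cell type lists other than those above, the summed level of 12 adipocyte markers was 1167 to 11009 with Scl-Ab, 824 to 13980 in the vehicle-treated model and 461 to 3743 in WT, and that of 8 cardiac muscle markers was 59.6 to 1094, 37.6 to 522 and 35.6 to 507 in the same groups. Nppa, the atrial natriuretic peptide gene, was the 1 of these 8 called for Scl-Ab against vehicle (24.6 and 2.55, log2 2.52, SE 0.75). For Scl-Ab against WT 5 of 8 were higher. These shares were 12.5% and 62.5%, where 7.44% and 50.4% of all tested genes were called. The part of heart muscle in the Klf13 and Klf15 results was not tested. Of the macrophage markers 12 of 13 were higher, and of the smooth muscle markers 9 of 10 lower, in the Scl-Ab-treated and in the vehicle-treated model against WT. In these 2 comparisons 50.4% and 53.7% of all tested genes were called. Of 4 tested neural markers 1 was higher and of 5 erythroid markers 2 were lower in the vehicle-treated model than in WT. At 25% and 40% called, these lists lay under the 53.7% of all tested genes. For Scl-Ab against WT 1 neural marker was higher and 4 erythroid markers were lower (median log2 -1.28). These shares were 25% and 80%, against 50.4% of all tested genes. Of the 10 T and B cell markers 0 passed the filter in any comparison. The 10 fibroblast markers summed to 2270 to 7959 with Scl-Ab, 2868 to 6373 in the vehicle-treated model and 2111 to 3971 in WT. In the vehicle-treated model 5 of 10 were higher and 1 lower than in WT, and this 60% was near the 53.7% of all tested genes. With the adipocyte level as a covariate Klf15 was called for Scl-Ab against vehicle (log2 -0.81, limma adjusted p = 0.0329) and Klf13 was called too (log2 -0.38, limma adjusted p = 0.03). For Scl-Ab against WT 4 of the 12 adipocyte markers were higher and 1 lower (41.7% called, against 50.4% of all tested genes). In that comparison the same covariate left Klf15 called (log2 -0.89, limma adjusted p = 0.00461) but not Klf10, Klf11 or Klf13 (limma adjusted p = 0.241, 0.243 and 0.129).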

How the data were processed

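Stranded mRNA libraries were made from at least 80 ng of aortic arch RNA with an integrity number of at least 7, per the labels' protocols. The deposited values are FPKM-like (FPKQ, a name not spelled out per the file headers). They share an upper quantile across libraries (85th percentile 6.99 to 7.30). Genome build GRCm38 and DESeq2 1.10.1 are named in the submitters' processing notes, with no role; aligner and counting: not given in the sources used here. Low values lay on steps (79.2 to 81.3% within 0.05), which gave the depth estimate on the assumption that 1 step is 1 fragment. The search covered a limited range of step sizes, so a step several times larger could not have been found.

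The fit used limma 3.58.1 (R 4.3.3; trend and robust options) on log2(value + 1), with all 29 libraries in 1 fit of 3 group means and Benjamini-Hochberg adjustment over 13510 genes; no count test was run. The pseudocount of 1 understates changes of low genes. Fitting was tested on simulated data. Relations used permutation of libraries, exact for 9 and with 100000 resamples for 10. Named genes were all members, the 2 smallest-p genes of each list and comparison, called Klf and Sp genes, and the 3 most alike genes per member; Nos3 against WT, Fkbp5 and Sgk1 levels were picked after values were seen. Members and lists were chosen with earlier results of these data known. No 2 libraries were duplicates (smallest root mean square log2 difference 0.235). Gene positions came from GENCODE M21. Alternatives covered pseudocount, filter, scaling, test, covariates and left-out libraries.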

Additional observations from a re-analysis of the deposited data

Results flagged for a closer look

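Values far from the rest of their group were looked for in each of the 10 members in each of 3 groups. In 4 of these 30 groups the highest library stood apart by Dixon's criterion, applied to values without a log. Chance meets it in about 1 in 20 groups if values are normal and groups independent. Neither was tested, and the Klf13 and Klf15 cases below are the same library, so the count is not set against chance. With Scl-Ab, library 10 had a Klf15 value of 56.9, against 25.3 for the next, and a Klf13 value of 31.3, against 22.7 for the next; the mean log2 level of glucocorticoid targets was 6.72 in that library and 4.95 to 5.55 in the other Scl-Ab libraries. In the vehicle-treated model, library 1 had a Klf2 value of 43.7, against 31.4 for the next. In WT, library 25 had a Klf10 value of 20.0, against 12.3 for the next.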

How the results depend on the processing

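The 9 tested members were recomputed under 15 alternatives, 2 of them (the glucocorticoid level as a covariate, and leaving out the 4 libraries whose title code has 1 as its second digit) chosen after seeing the data, and without each of the 29 libraries. The relations were recomputed under 2 alternatives with no library left out in turn, and Klf5 only with no filter. Klf15 for Scl-Ab against WT was lower and called in all 15 and without any 1 library. Library numbers are not shared between groups, but the last 2 digits of the unexplained title codes are shared by 8 vehicle and 8 Scl-Ab libraries. Deviations of the 8 pairs correlated at -0.54 to 0.62, over 0.1 in 2 pairs, and 2 of 8 Scl-Ab libraries were most like their own number. With these digits as a replicate block, chosen after seeing the data, 0 members and 7 genes were called for Scl-Ab against vehicle, and in the same 16 libraries with no replicate block 0 members and 180 genes; in both Klf2 was -0.11 and Klf6 -0.013 (log2). In the vehicle-treated model against WT, 0 members were called in the main analysis, 1 with the clock, immediate early or glucocorticoid level as a covariate, and 0 to 1 with a library left out (1 without WT 25). For Scl-Ab against vehicle 1 was called: 0 with no filter on low values, equal totals per library, only the 2 groups in the fit, a Wilcoxon test, or the clock or glucocorticoid covariate, 2 with a filter at 5 or the adipocyte covariate, and 0 to 2 with a library left out (0 without Scl-Ab 12, 15 or 17 or vehicle 2, 4 or 6, and 2 without Scl-Ab 10, vehicle 3 or 5 or WT 20). For Scl-Ab against WT 4 were called: 1 with no filter and with the clock or adipocyte covariate, 2 with only 2 groups, without the 4 libraries or with the glucocorticoid covariate, and 1 to 4 with a library left out (1 without Scl-Ab 12 or 15 or WT 20 or 21, and 2 without Scl-Ab 10, 11, 13 or 17 or WT 22 or 29). Of the relations, 2 were called, 0 without the 2 farthest libraries and 3 with equal totals. Genes called in all for Scl-Ab against vehicle numbered 1005, against 447 with no filter, 367 with equal totals, 309 with 2 groups, 412 by Wilcoxon, 3 with the clock covariate, 1544 with the adipocyte covariate and 577 without the 4 libraries, and 547 to 1223 with a library left out (547 without vehicle library 2, 628 without vehicle 5 and 607 without vehicle 6). The share of these calls that were higher was 35.4%, 65.4% with equal totals and 46.2% with median-of-ratios scaling. The cause was not tested.

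Members that were not called crossed 0 in some settings (log2). In the vehicle-treated model against WT, the glucocorticoid covariate gave -0.0945 for Klf2, -0.0094 for Klf4, -0.0099 for Klf6, 0.16 for Klf7, -0.13 for Klf11 and -0.19 for Klf13. The clock covariate gave -0.0448 for Klf3, -0.0623 for Klf6 and -0.00082 for Klf13, and the immediate early covariate -0.015 for Klf3 and 0.0023 for Klf15. Without the 4 libraries Klf6 was -0.0013 and Klf7 0.0041. Klf11 was -0.018 with quantile normalisation, -0.0408 with array weights and -0.0580 with the adipocyte covariate. Klf15 was 0.0254 with median-of-ratios scaling, 0.017 with quantile normalisation and 0.0852 with array weights. For Scl-Ab against vehicle, the immediate early covariate gave -0.13 for Klf2 and -0.10 for Klf6, the glucocorticoid covariate -0.0801 for Klf3 and -0.0061 for Klf7, and the clock covariate -0.24 for Klf10. With a library left out, the vehicle-treated model against WT gave -0.0319 to 0.0715 for Klf3, -0.0216 to 0.0634 for Klf6, -0.0882 to 0.0422 for Klf7, -0.0236 to 0.11 for Klf11 and -0.11 to 0.12 for Klf15. Scl-Ab against vehicle gave -0.0352 to 0.0835 for Klf3 and -0.0544 to 0.0907 for Klf6, and Scl-Ab against WT -0.0357 to 0.11 for Klf6. Klf5, at an estimated 0 to 15 or 0 to 44.7 fragments per library depending on the length or depth assumed, has few fragments and is flattened by the pseudocount. These limits were not separated.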
